A study of Mus musculus with 6 samples.

Results

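The levels of 10 genes known for their expression in fat cells were followed in RNA from sorted mouse mammary epithelium, in 3 *Glis2*+/+ and 3 *Glis2*-/- libraries. They are *Adipoq*, *Lep*, *Retn*, *Cfd*, *Plin1*, *Plin4*, *Cidec*, *Fabp4*, *Lpl* and *Pparg*, 10 of the 54418 genes in the count table, and all 10 were found by symbol. They were chosen by name as adipocyte genes, with the counts of these same 6 libraries already known, so that their levels are given as a description. The mice were C57BL/6 females aged 4 weeks, either wild type (*Glis2*+/+) or *Glis2* mutant (*Glis2*-/-), with 1 library per mouse. The glands were dissociated with enzymes, stained with a viability dye and with antibodies against TER-119, CD31, CD45, CD24 and CD49f, and sorted by FACS. TER-119, CD31 and CD45 mark erythroid, endothelial and blood cells, and CD24 with CD49f separates mammary epithelium from stroma. The mutation is in the germline, so that genotype here covers the fat, vessels and stroma of the animal as well as its epithelium.

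The mammary epithelium grows as a branching tree inside a fat pad, so that adipocytes surround the ducts. A white adipocyte stores triglyceride in 1 large lipid droplet. PPARG, a nuclear receptor that binds DNA together with RXR, and the C/EBP factors switch on the genes for fatty acid uptake, for the proteins that coat the droplet and for secreted hormones. Several of these genes are not restricted to adipocytes: FABP4 and CD36 are also made by the endothelium of small vessels and by macrophages, and LPL is made by several cell types and works on the vessel wall. Adiponectin, leptin and perilipin 1 are closer to being restricted to fat.

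The libraries held between 24996524 and 31393917 counts, and 3 counts, the limit that a count of 0 allows, correspond to between 0.0959 and 0.12 CPM. The levels given here as CPM are the deposited estimated counts scaled to library size by the TMM method. They are not divided by transcript length, so that levels of different genes are compared only as TPM, which are. *Glis2* itself had 21.7, 23.2 and 19.6 CPM in the *Glis2*+/+ libraries and 10.1, 17 and 16.3 CPM in the *Glis2*-/- libraries. Each mutant library lay below each wild-type library, and the transcript was present in all 6. Epithelial markers were high in every library, with a median of 203 TPM for *Krt8*, a luminal keratin, and 77.3 TPM for *Epcam*, an epithelial adhesion protein. Markers of other cells were also high or present, with a median of 145 TPM for the collagen gene *Col3a1*, which exceeded *Krt8* in 3 of 6 libraries, and 9.94 TPM for *Cdh5*, the cadherin of endothelial junctions. The markers of the labelled epithelium were thus present in every library, beside transcripts of other cells.

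The sequences just before the start sites of the genes were searched for the letters that PPARG and C/EBP factors are known to bind. The part of such motifs in the levels of the genes was not tested. RefSeq promoters on GRCm38.p6 were available for 8 of the 10 genes, with 11 start sites, all but *Fabp4* and *Lpl*. In the 250 bases before the start, on both strands, TTGCNNAA, a C/EBP-type motif, was found at 4 of 11 start sites (36.4%) and at 9.56% of all 32851 start sites. AGGTCA, a core motif of nuclear receptors, was found at 2 of 11 (18.2%), both of *Pparg*, and at 14% of all. A pair of AGGTCA with 1 base between them, the form bound by PPARG with RXR, was found at 0 of 11 and at 0.0335% of all. A match describes letters and not a bound site. The stretches below, 1 for each of the 4 genes with TTGCNNAA, run 5′ to 3′ on the strand of the gene, with the motif in capitals. That of *Lep* (chr6:29060136-29060203, plus strand) holds the motif 55 bases before the start. That of *Plin1* (chr7:79732926-79732993, minus strand) holds it 187 bases before a start that lies within the annotated gene, though the stretch itself lies outside the gene. That of *Cidec* (chr6:113434925-113434992, minus strand) holds it 198 bases before the inner of its 2 starts, within the gene. That of *Pparg* (chr6:115421821-115421888, plus strand) holds it 215 bases before an inner start, also within the gene.
Lep: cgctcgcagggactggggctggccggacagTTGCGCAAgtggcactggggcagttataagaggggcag
Plin1: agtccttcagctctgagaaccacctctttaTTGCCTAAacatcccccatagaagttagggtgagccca
Cidec: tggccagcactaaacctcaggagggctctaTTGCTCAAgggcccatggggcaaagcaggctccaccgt
Pparg: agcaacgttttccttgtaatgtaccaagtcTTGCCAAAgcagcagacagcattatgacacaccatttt

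The 10 genes were not expressed at comparable levels. Per transcript length, *Fabp4* stood at a median of 52.3 TPM over the 6 libraries, *Lpl* at 6.26 TPM and *Pparg* at 1.31 TPM, and the other 7 genes at under 1 TPM. These were *Plin1* (0.573 TPM), *Adipoq* (0.312 TPM), *Cfd* (0.233 TPM), *Cidec* (0.156 TPM), *Plin4* (0.155 TPM), *Retn* (0.0479 TPM) and *Lep* (0.0434 TPM). *Fabp4* and *Lpl* together held between 83.6% and 93.5% of the counts of the 10 genes in a library. The order of the first 3 was the same in the medians and was wide within libraries: *Fabp4* exceeded *Lpl* between 4.77-fold and 9.51-fold and *Pparg* between 10.3-fold and 46.5-fold, in TPM of the same library. Among the genes under 1 TPM, neighbours in the order overlapped in their range over libraries. The 5 genes with the fewest counts, *Adipoq*, *Lep*, *Retn*, *Cfd* and *Cidec*, had 190, 38 and 169 counts together in the *Glis2*+/+ libraries and 64, 76 and 139 in the *Glis2*-/- libraries, and 7 of the 60 values of the 10 genes were 0. At this depth these 5 genes, adiponectin and leptin included, were near the limit of detection in part of the libraries, whereas the other 5 had counts in every library.

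**Figure D1:**
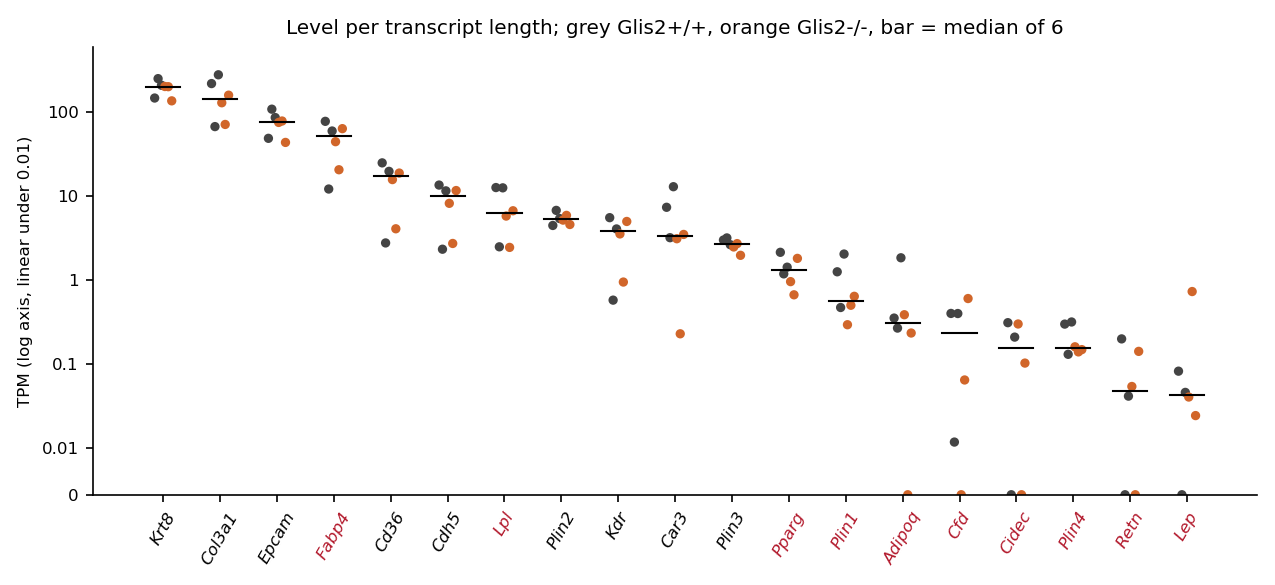
Levels in TPM of the 10 adipocyte genes (red names) and of 9 other genes, on a log axis that is linear under 0.01 TPM, with 1 point per library (grey *Glis2*+/+, orange *Glis2*-/-) and a bar for the median of 6. By median, *Fabp4* (52.3 TPM) lies below *Epcam* and above *Cd36* and *Cdh5*, though it exceeds *Epcam* in 2 libraries, and 7 of the 10 genes have medians under 1 TPM.

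*Pparg* (ENSMUSG00000000440, chromosome 6, 115360951 to 115490399 on GRCm38, plus strand), the transcription factor of adipocyte formation, had 17, 6.16 and 9.67 CPM in the *Glis2*+/+ libraries (replicates 1 to 3) and 7.47, 5.04 and 13.2 CPM in the *Glis2*-/- libraries. The highest and the lowest library differed 3.38-fold, and the genotypes overlapped. The fitted difference, *Glis2*-/- against *Glis2*+/+, was -0.36 on the log2 scale (SE 0.44, 95% interval -1.37 to 0.66, adjusted p = 0.971 from edgeR's quasi-likelihood test). An antisense gene, *Gm44079*, overlaps *Pparg* on the other strand.

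*Fabp4* and *Lpl*, which carry and release fatty acids, varied widely from mouse to mouse. *Fabp4* (ENSMUSG00000062515, chromosome 3, 10204088 to 10208576, minus strand), the fatty acid carrier of the adipocyte cytoplasm, had 294, 46.3 and 188 CPM in *Glis2*+/+ and 157, 89 and 256 CPM in *Glis2*-/- libraries. The libraries of both genotypes are interleaved, with *Glis2*+/+ replicate 1 highest and *Glis2*+/+ replicate 2 lowest, 6.34-fold apart. Its mean was 176 ± 124 CPM in *Glis2*+/+ and 167 ± 83.8 CPM in *Glis2*-/- cells (SD, n = 3 each), with a log2 fold change of -0.08 (SE 0.59, 95% interval -1.41 to 1.26, adjusted p = 0.996 from edgeR). *Lpl* (ENSMUSG00000015568, chromosome 8, 68880491 to 68907448, plus strand), the lipase that frees fatty acids from lipoproteins, had 180, 33.7 and 165 CPM in *Glis2*+/+ and 81.8, 43.1 and 112 CPM in *Glis2*-/- libraries. The same library was highest and the same was lowest as for *Fabp4*, 5.34-fold apart. The log2 fold change of *Lpl* was -0.68 (SE 0.56, 95% interval -1.95 to 0.60, adjusted p = 0.941 from edgeR). Both intervals reach below -1, so that a fall of that size on the log2 scale cannot be told from no change with 3 mice per genotype.

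The genes of the lipid droplet coat were low, and 2 of the 3 were lower on average in *Glis2*-/- libraries by more than their standard error. *Plin1* (ENSMUSG00000030546, chromosome 7, 79720218 to 79732903, minus strand), perilipin 1, which guards the droplet of the adipocyte against lipases, had 11, 4.69 and 14.4 CPM in *Glis2*+/+ and 2.44, 3.51 and 5.66 CPM in *Glis2*-/- libraries. *Glis2*+/+ replicate 2, at 4.69 CPM, lies below *Glis2*-/- replicate 3, so that the genotypes overlapped by 1 pair. The log2 fold change of *Plin1* was -1.37 (SE 0.46, 95% interval -2.42 to -0.32), with an unadjusted p of 0.0166 and an adjusted p of 0.906 from edgeR. *Plin4* (ENSMUSG00000002831, chromosome 17, 56100591 to 56109803, minus strand), another droplet coat protein, had 8.39, 3.54 and 7.56 CPM in *Glis2*+/+ and 4.04, 4.21 and 4.7 CPM in *Glis2*-/- libraries, a spread between *Glis2*-/- mice of 0.343 CPM (SD). Its log2 fold change was -0.59 (SE 0.35, adjusted p = 0.932 from edgeR). It overlaps *Hdgfl2* on the other strand. *Cidec* (ENSMUSG00000030278, chromosome 6, 113424634 to 113435760, minus strand), which fuses droplets, had 36, 0 and 14 counts in *Glis2*+/+ and 20, 0 and 25 counts in *Glis2*-/- libraries. It was at 0 in the second replicate of each genotype, and its log2 fold change was -0.10 with a SE of 1.51.

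The secreted proteins were at 0 to 106 counts per library. *Adipoq* (ENSMUSG00000022878, chromosome 16, 23146536 to 23158028, plus strand), adiponectin, had 57, 37 and 106 counts in *Glis2*+/+ and 26, 0 and 18 counts in *Glis2*-/- libraries, or 1.85, 1.3 and 4.07 against 1.04, 0 and 0.575 CPM. It was the only 1 of the 10 genes whose genotypes did not overlap in CPM. In TPM they did overlap, with 0.354, 0.269 and 1.85 TPM in *Glis2*+/+ and 0.388, 0 and 0.235 TPM in *Glis2*-/- libraries. The counts that a TPM of *Adipoq* stood for, relative to the median gene of the library, were 0.587, 0.589 and 0.287 in *Glis2*+/+ and 0.317 and 0.255 in the *Glis2*-/- libraries with counts, and this quantity moves with the length of the transcripts to which Salmon assigned the reads. The mean was 2.4 ± 1.47 CPM in *Glis2*+/+ and 0.538 ± 0.521 CPM in *Glis2*-/- cells (SD, n = 3 each), and the log2 fold change was -2.16 (SE 1.07, 95% interval -4.60 to 0.28, adjusted p = 0.907 from edgeR). *Lep* (ENSMUSG00000059201, chromosome 6, 29060220 to 29073877, plus strand), leptin, had 37, 0 and 15 counts in *Glis2*+/+ and 14, 69 and 12 counts in *Glis2*-/- libraries. Its highest value came from *Glis2*-/- replicate 2, a library in which *Adipoq*, *Cidec* and *Retn* were at 0. In that library a TPM of *Lep* stood for fewer counts than in the 4 others with counts, 0.317 against 1.63 to 1.64 on the same relative measure. *Cfd* (ENSMUSG00000061780, chromosome 10, 79890853 to 79892655, plus strand), adipsin, had 40, 1 and 31 counts in *Glis2*+/+ and 0, 7 and 66 counts in *Glis2*-/- libraries. *Retn* (ENSMUSG00000012705, chromosome 8, 3655770 to 3660110, plus strand), resistin, had 20, 0 and 3 counts in *Glis2*+/+ and 4, 0 and 18 counts in *Glis2*-/- libraries and did not pass the filter on low counts. The log2 fold changes of *Lep*, 0.86 with a SE of 1.24, and of *Cfd*, -0.10 with a SE of 1.48, were smaller than their errors.

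**Figure D2:**
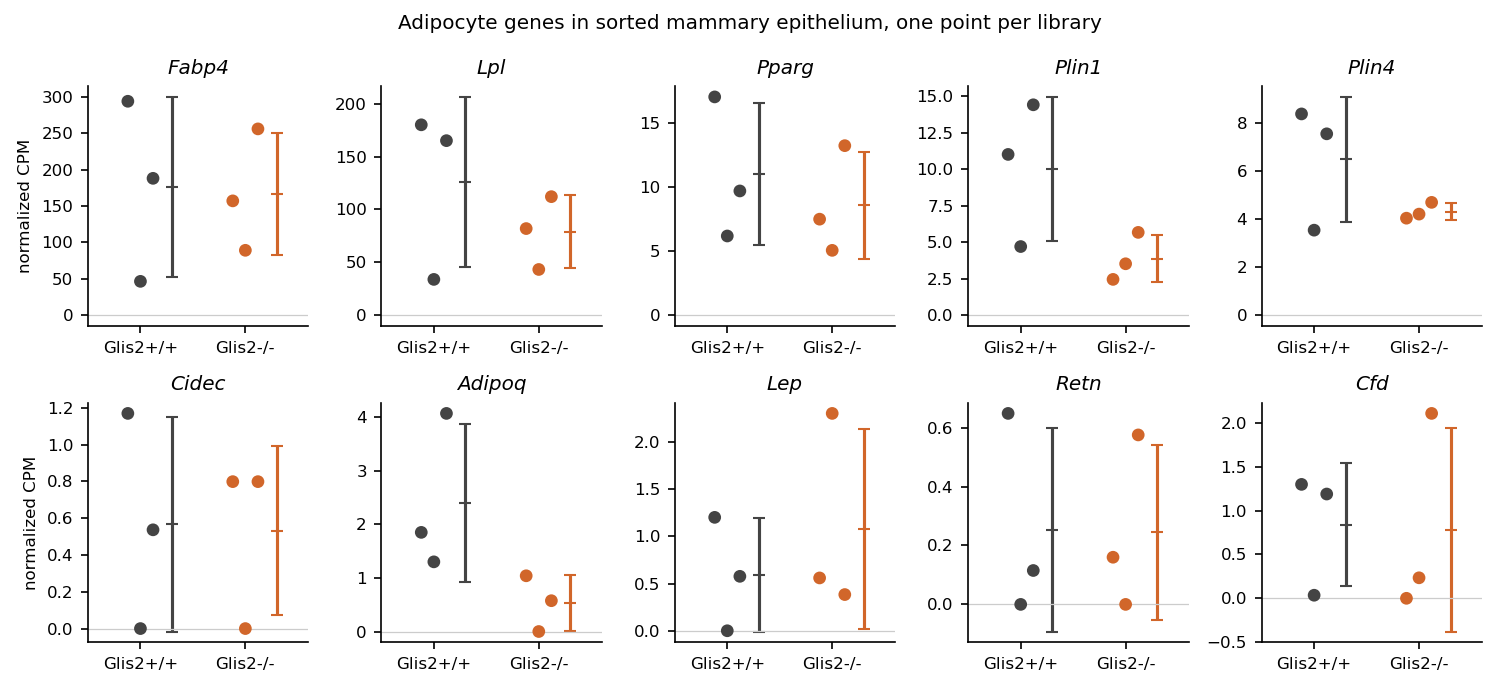
CPM of the 10 adipocyte genes in the 3 *Glis2*+/+ and 3 *Glis2*-/- libraries, with 1 point per mouse and bars for the mean ± SD; each panel has its own axis. The genotypes overlap for 9 of the 10 genes, and *Adipoq* is the exception.

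Over the 10 genes, the genotype comparison gave 0 calls. Calls needed an adjusted p no higher than 0.05 together with a log2 fold change of 0.58 or more in either direction. With edgeR, 0 of the 9 genes tested were called, as were 0 of 21236 genes in all (0%), and the smallest adjusted p of any gene was 0.392. An unadjusted p under 0.05 was given to 1130 genes, of which 1, *Plin1*, is in the list. With DESeq2, 0 of the 10 genes were called, beside 48 of 27248 genes (0.176%). Without overlap between genotypes in CPM, 1 of the 10 genes, *Adipoq*, which overlapped in TPM, was lower in *Glis2*-/- libraries and 0 were higher, where 5.5% of all genes tested were lower without overlap. In the edgeR fit, 8 of the 9 adipocyte genes had a negative log2 fold change, with a median of -0.36, and the median of all genes tested was 0.011. Some other cell type lists leaned the same way, with 7 of 9 skeletal muscle markers (median -1.15) and 6 of 8 fibroblast markers (median -0.29) fitted lower. Others leaned higher: 5 of 7 macrophage markers (median 0.28), 5 of 5 erythroid and leukocyte markers (0.85) and 8 of 10 adipocyte progenitor genes (0.29). Of the epithelial markers, 8 of 10 were fitted higher (0.11), and the endothelial median was -0.06. The part of these cells in the median of the adipocyte genes was not tested. This median rests on *Glis2*+/+ replicate 1, without which it was 0.1. Since the RNA is from a mixture of cells, fewer adipocyte-derived cells or fragments in a library and less RNA per cell cannot be told apart.

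**Figure D3:**
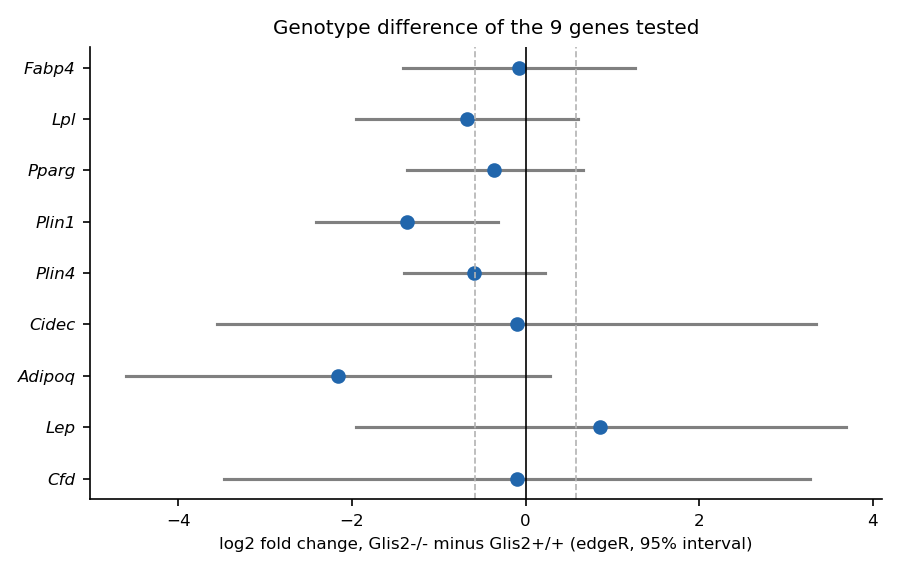
Log2 fold changes of *Glis2*-/- against *Glis2*+/+ for the 9 adipocyte genes that passed the filter, with 95% intervals from the edgeR fit and dashed lines at a change of 0.58 in each direction. The interval of *Plin1*, from -2.42 to -0.32, is the only one that does not include 0, at an adjusted p of 0.906.

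The summed level of the 10 genes differed more between mice of a genotype than between genotypes. It was 516, 95.7 and 391 CPM in *Glis2*+/+ and 255, 147 and 395 CPM in *Glis2*-/- libraries, with means of 334 ± 216 and 266 ± 124 CPM (SD, n = 3 each). The highest library exceeded the lowest 5.39-fold, and both lie in the *Glis2*+/+ group. As a share of counts, the genes took 0.0526% in *Glis2*+/+ replicate 1 (exact 95% binomial interval 0.0518% to 0.0534%) and 0.00955% in *Glis2*+/+ replicate 2 (0.00919% to 0.00991%), intervals that cover counting error only. Without *Fabp4* and *Lpl* the sum was 42.6, 15.7 and 38.1 CPM in *Glis2*+/+ and 16.5, 15.3 and 28 CPM in *Glis2*-/- libraries. The second replicate of each genotype was the lowest of its genotype in both sums.

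The order of the libraries was not the same for all 10 genes. *Fabp4* was taken as the reference for this order because it had the most counts, a choice made after its values were seen. From high to low its order was *Glis2*+/+ 1, *Glis2*-/- 3, *Glis2*+/+ 3, *Glis2*-/- 1, *Glis2*-/- 2 and *Glis2*+/+ 2. None of the 8 other genes tested had this order in full, and 3 of the 8 shared its 2 lowest libraries. *Plin1* and *Adipoq* were highest in *Glis2*+/+ replicate 3 instead, and *Lep* in *Glis2*-/- replicate 2. Pearson's r of each gene's log2 CPM with the mean of the list over the 6 libraries, to which the gene itself contributes, was 0.986 for *Lpl*, 0.919 for *Plin4*, 0.914 for *Fabp4* and 0.901 for *Pparg*, but 0.541 for *Adipoq* and 0.424 for *Lep*.

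**Figure D4:**
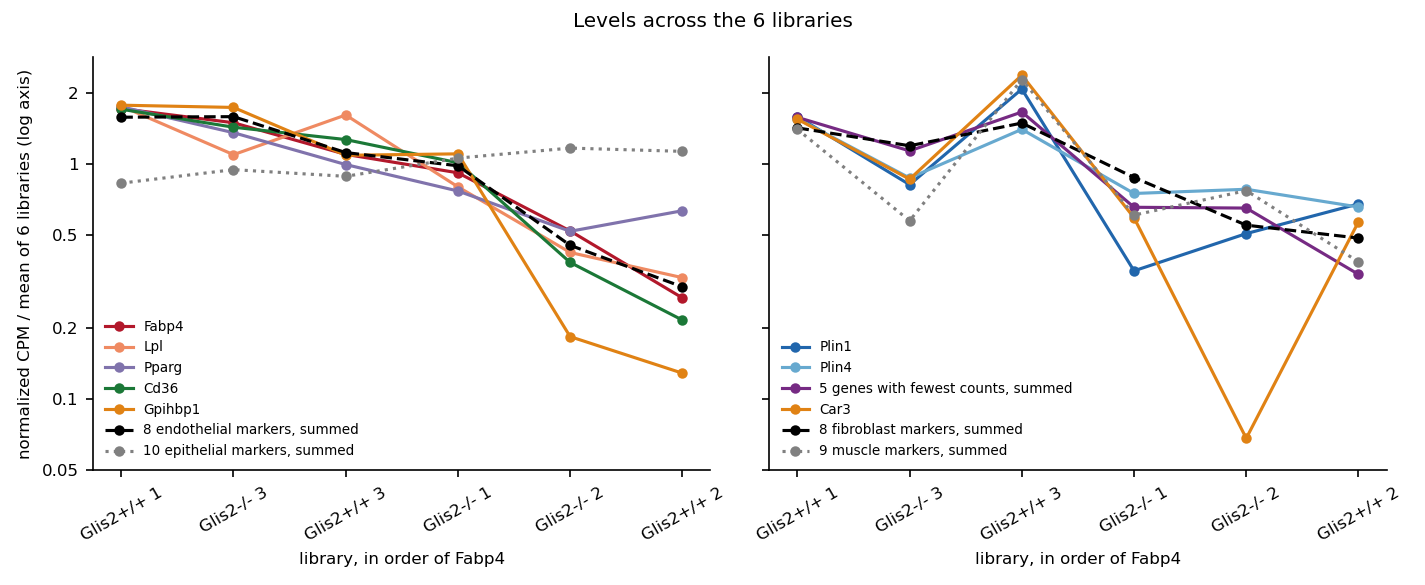
CPM of adipocyte genes and of summed marker lists in the 6 libraries, each divided by its mean over the libraries, on a log axis, with the libraries in the order of *Fabp4*. On the left, *Fabp4* and *Cd36* fall throughout, and the endothelial sum goes from 723 CPM in *Glis2*+/+ 1 and 727 CPM in *Glis2*-/- 3 down to 138 CPM in *Glis2*+/+ 2, while the epithelial sum stays between 6100 and 8590 CPM; on the right, *Plin1*, *Car3* and the muscle sum are highest in *Glis2*+/+ 3.

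Most markers of endothelial cells had the library order of *Fabp4*, which none of the other 9 adipocyte genes had. The order of the 6 libraries was identical to that of *Fabp4* for 6 of 8 endothelial markers, *Cdh5*, *Kdr*, *Tek*, *Cldn5*, *Esam* and *Egfl7*, and for 0.598% of all genes tested. It was also identical for *Ebf1* of the 18 identity genes tested, *Dlk1* of the 10 progenitor genes and *Cd68* of the 7 macrophage markers tested. *Cdh5* had 225, 35.9 and 164 CPM in *Glis2*+/+ and 122, 51.5 and 213 CPM in *Glis2*-/- libraries. Within a library the TPM of *Fabp4* was between 5.15 and 7.53 times that of *Cdh5*. The same ratio ran from 12.5 to 21.7 over the endothelial *Kdr*, from 4.77 to 9.51 over *Lpl*, from 10.3 to 46.5 over *Pparg* and from 25.9 to 151 over *Plin1*. The endothelial markers did not all vary as widely as *Fabp4*, so that the ratio to *Cdh5* does not stand for all of them. In CPM, the highest library exceeded the lowest 3.55-fold for *Tek* and *Esam* and 10.8-fold for *Kdr*, against 6.34-fold for *Fabp4* and 5.34-fold for *Lpl*. The 8 endothelial markers were all tested, none was at 0 in all libraries, and their sum ran from 138 to 723 CPM in *Glis2*+/+ and from 207 to 727 CPM in *Glis2*-/- libraries. *Pecam1*, which encodes the CD31 used as a sort marker, had 160, 44.6 and 124 CPM in *Glis2*+/+ and 130, 72.1 and 198 CPM in *Glis2*-/- libraries. *Cd36*, a fatty acid transporter shared by adipocytes and vessels, had the order of *Fabp4* in full, with 199, 25.4 and 148 CPM in *Glis2*+/+ and 118, 44.6 and 167 CPM in *Glis2*-/- libraries. *Gpihbp1*, which holds LPL on the vessel wall and was named after its values were seen, had 23, 1.68 and 14.1 against 14.3, 2.4 and 22.5 CPM. The part of endothelial RNA in the level of *Fabp4* was not tested.

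The other marker lists moved in part with the genes. The fibroblast sum was 7860, 2680 and 8240 CPM in *Glis2*+/+ and 4840, 3040 and 6600 CPM in *Glis2*-/- libraries, led by *Col3a1* and *Col1a1*, and 6 of its 8 genes shared the 2 lowest libraries of *Fabp4*. Such sharing was seen for 11.2% of all genes tested. The sum of 9 skeletal muscle markers, led by *Acta1* and *Myh4*, was highest in *Glis2*+/+ replicate 3, as *Plin1* and *Adipoq* were, with 34.2, 9.38 and 55.6 CPM in *Glis2*+/+ and 14.8, 18.8 and 14 CPM in *Glis2*-/- libraries. The macrophage sum, led by *Mrc1* and *Lyz2*, ran from 22.1 to 35.6 CPM in *Glis2*+/+ and from 25.8 to 47.6 CPM in *Glis2*-/- libraries, with 7 of 8 genes tested. The sum of the erythroid and leukocyte markers, led by *Ptprc* and *Hba-a2*, ran from 14.3 to 30.7 CPM in *Glis2*+/+ and from 26.1 to 68.6 CPM in *Glis2*-/- libraries. *Ptprc*, which encodes the CD45 used as a sort marker, had 11, 7.98 and 9.67 CPM in *Glis2*+/+ and 14.8, 14.5 and 38.7 CPM in *Glis2*-/- libraries, without overlap (log2 fold change 1.25, SE 0.39, adjusted p = 0.906 from edgeR). *Cd52* did not overlap in the same direction (2.31, SE 0.76), at 9, 8 and 2 counts in *Glis2*+/+ and 23, 30 and 43 counts in *Glis2*-/- libraries. Its level in *Glis2*+/+ replicate 3, 0.0768 CPM, lies under the 0.115 CPM that 3 counts correspond to there. These are 2 of the 5 genes of this list tested, where 11.7% of all genes tested did not overlap in either direction. The epithelial sum, led by *Krt8* and *Acta2*, was 8320 and 8590 CPM in the second replicates and 6100 CPM in *Glis2*+/+ replicate 1. Its genes did not share 1 order: *Krt8* (1950 CPM) and the basal keratin *Krt5* (442 CPM) were highest in *Glis2*+/+ replicate 2, *Oxtr* (280 CPM) in *Glis2*-/- replicate 2 and *Acta2* (1840 CPM) in *Glis2*-/- replicate 3. The luminal markers ran opposite to the adipocyte genes. Pearson's r with the mean of the adipocyte genes was -0.893 for *Krt8*, -0.84 for *Cdh1*, -0.829 for *Krt18*, -0.806 for *Epcam* and -0.78 for *Krt19*. Of all 10 epithelial genes, 2 had an r above 0, the basal *Trp63* (0.301) and *Acta2* (0.0984), and the median r was -0.774. None of the genes of these lists was called by edgeR or DESeq2, and the part of these cells in the levels of the adipocyte genes was not tested.

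Other genes of adipocyte lipid metabolism mostly varied less between the libraries than *Fabp4* and *Lpl* did. The exceptions were *Pck1* (15.7-fold between the highest and lowest library), *Cd36* (7.81-fold), *Thrsp* (7.61-fold) and *Aqp7* (6.85-fold), and *Plin5* and *Cidea*, which were at 0 in 1 library. In a list of 23 such genes, 22 were tested, 0 were called, 9 had a negative and 13 a positive log2 fold change, and the median was 0.10. The median gene of this list differed 1.75-fold between its highest and lowest library, against 2.37-fold to 6.34-fold for the 5 adipocyte genes with counts in every library and 2.02-fold for the median of all genes tested. The genotypes did not overlap for 3 of the 22, where 11.7% of all genes tested did not overlap in either direction. Of the lipases, *Pnpla2*, which starts the breakdown of triglyceride, had 64.8, 97.6 and 73.1 CPM in *Glis2*+/+ and 77.4, 91.5 and 64.6 CPM in *Glis2*-/- libraries. *Mgll*, which completes it, had 63.3, 21.8 and 51.5 against 50.9, 32.1 and 73.9 CPM. *Plin2* and *Plin3*, the droplet coat proteins of most cell types, stood at medians of 5.32 and 2.69 TPM, above the medians of *Plin1* (0.573 TPM), *Plin4* (0.155 TPM) and *Plin5* (0.0559 TPM). *Plin2* was highest in *Glis2*-/- replicate 2, at 41.1 CPM, and lowest in *Glis2*-/- replicate 3, at 25.6 CPM, so that it did not share the order of *Fabp4*. Of the synthesis genes, *Gpam* had 42.6 to 47.2 CPM in *Glis2*+/+ and 45.6 to 57 CPM in *Glis2*-/- libraries, and *Lpin1* 20.9 to 36.4 and 24.3 to 33.2 CPM. *Slc27a1*, a fatty acid transporter, had 28.4 to 30 CPM in *Glis2*+/+ and 33.2 to 45.3 CPM in *Glis2*-/- libraries, without overlap. The log2 fold changes that were largest in this list were those of *Plin5* (0.68), *Slc2a4*, the insulin-dependent glucose transporter (0.63), *Dgat1* (0.46) and *Dgat2* (0.46), and the smallest those of *Acsl1* (-0.40), *Pck1* (-0.30) and *Abhd5* (-0.21), each with an adjusted p of at least 0.906 from edgeR.

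Of 20 genes of adipocyte identity, receptors and further adipocyte products, 18 were tested and 0 were called, with 9 negative and 9 positive log2 fold changes and a median of -0.01. *Cebpb*, a factor of early adipocyte formation that many cells use, had 184, 315 and 192 CPM in *Glis2*+/+ and 206, 300 and 205 CPM in *Glis2*-/- libraries. *Rxra*, the partner of PPARG on DNA, had 73.2, 68.9 and 66 CPM in *Glis2*+/+ and 84.7, 86.4 and 78.3 CPM in *Glis2*-/- libraries. *Rxra* was higher without overlap, by 0.26 on the log2 scale (SE 0.10, adjusted p = 0.906 from edgeR). *Insr*, the insulin receptor, was also higher without overlap (0.21), and *Adipor2*, a receptor of adiponectin, was lower without overlap (-0.18). These are the 3 of the 18 genes tested without overlap, where 11.7% of all genes tested did not overlap in either direction. *Adipor1*, the other receptor, had 136 to 168 CPM in *Glis2*+/+ and 149 to 178 CPM in *Glis2*-/- libraries, and *Acvr1c* was under 1 CPM in all 6. *Adig* had the largest log2 fold change (0.70), at 0.23 to 0.999 CPM. The lowest log2 fold changes were those of *Rbp4*, a retinol carrier (-1.62, SE 0.73), *Car3*, a carbonic anhydrase abundant in fat and muscle (-1.56, SE 0.77), and *Ebf2* (-0.58), with adjusted p of at least 0.906 from edgeR. *Car3* had 40.6, 14.9 and 62.4 CPM in *Glis2*+/+ and 15.5, 1.8 and 22.6 CPM in *Glis2*-/- libraries, and its highest library was that of *Plin1* and *Adipoq*. Of 10 adipocyte progenitor genes, led by *F3* and *Pdgfrb*, 10 were tested, 0 were called and 8 had a positive log2 fold change, with a median of 0.29.

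The genes most like the list were named by a fixed rule. Over the 6 libraries, the mean of the standardized log2 CPM of the adipocyte genes was followed with a Pearson's r of at least 0.95 by 213 genes outside the list. Such an r was reached by 1.01% of all genes tested, 4 of 8 fibroblast markers, 1 of 8 endothelial markers, 1 of 7 macrophage markers, 1 of 18 identity genes and 0 of 22 lipid genes. The median r was close for fibroblast (0.927) and endothelial (0.919) markers, so that their counts differ mainly by the threshold. The 10 closest of 15196 protein-coding genes were *Chrdl1*, *Gpx8*, *Cpe*, *Emilin1* (each 0.996), *Ccn3* (0.995), *Pcdh1* (0.994), *Fabp9* (0.993), *Col5a1* (0.992), *Adamts4* (0.991) and *Vim* (0.991). These values are the highest of many and share the 6 libraries and their depth. *Vim*, a filament protein of mesenchymal cells, had 765, 319 and 704 CPM in *Glis2*+/+ and 414, 311 and 582 CPM in *Glis2*-/- libraries. *Col5a1*, a collagen of connective tissue, had 521, 146 and 496 against 259, 166 and 388 CPM. *Fabp9*, a fatty acid carrier, lies 6804 bases from *Fabp4* on the same strand (chromosome 3, 10193621 to 10197283) and had 72, 7 and 45 counts in *Glis2*+/+ and 13, 10 and 48 counts in *Glis2*-/- libraries. Related genes such as *Fabp4* and *Fabp9* can share reads, so that the counts of *Fabp9* are uncertain.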

How the data were processed

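The 6 libraries, from FACS-sorted mammary epithelium of 3 mice per genotype, were made with a stranded kit for small amounts of total RNA. The authors estimated counts with Salmon 1.2.1 on mm10 transcripts with the genome as a decoy and summed them per gene with tximport. The deposited estimated counts were whole numbers without normalization. The deposited log2 values were those of TPM with an offset of 1, and TPM were recovered from them. *Gm23935* held 83% to 85.7% of the TPM of a library, which scales down all other TPM, so that TPM were compared mainly within libraries or as medians, and between libraries for *Adipoq* and in the limma alternative. Symbols were matched for 54096 of 54418 identifiers to a GRCm38 annotation. A chi-square comparison found no library deposited more than once (lowest value per degree of freedom 20.8).

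Genes were compared by the quasi-likelihood test of edgeR 4.0.16 in R 4.3.3, after filterByExpr, with TMM normalization and Benjamini-Hochberg adjustment over all 21236 genes tested, without a replicate block. Alternatives were DESeq2 1.42.0 (the test of the study's methods), DESeq2 size factors, no filter on low counts, limma 3.58.1 on log2(TPM + 1), a replicate block and leaving out each library. The functions were tested on simulated data. The members and the gene lists were chosen with earlier results of these data known. The genes named were the 10 members, *Glis2*, the 10 protein-coding genes with the highest Pearson's r with the mean of the members, per list and role the genes with the most CPM, those at 0 in all libraries, and the 3 largest and smallest log2 fold changes of the lipid and identity lists. Any further gene was picked with its values in view. A gene that this rule selects is not reported here. Intervals and the limit for a count of 0 cover counting error only.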

Additional observations from a re-analysis of the deposited data

How the results depend on the processing

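The count of 0 adipocyte genes called, and of 0 among the other lipid and identity genes, held with edgeR as described and in 11 of 11 alternatives (0 to 0 with each library left out). Over all genes, 0 were called by edgeR, 48 by DESeq2 and 40 without the filter on low counts, and 0 to 0 with each library left out; the cause was not tested. Between libraries of the same replicate number, the correlations of deviations from the genotype mean were -0.019, 0.15 and 0.016. Libraries of unlike replicate number were not compared, so that these values cannot settle whether the numbers pair the libraries. With the replicate block 0 genes were called. The median log2 fold change of the adipocyte genes, -0.36, was -0.34 with the block, -0.12 with limma and -0.83 to 0.1 with each library left out, with 0.1 without *Glis2*+/+ replicate 1. Of 99 log2 fold changes over the alternatives, 86 kept their direction and 13 reversed. *Adipoq* (-3.03 to -0.5), *Lpl* (-1.13 to -0.35), *Plin1* (-1.77 to -0.56) and *Plin4* (-0.88 to -0.12) kept theirs in 11 of 11, and *Adipoq* ran from -3.03 to -1.55 with each library left out. *Fabp4* reversed to 0.0034 with limma and 0.16 with the block, and *Cidec* to 0.01 with the block. With each library left out, *Fabp4* ranged from -0.54 to 0.5, *Cidec* from -0.68 to 0.97, *Pparg* from -0.83 to 0.1, *Cfd* from -2.77 to 0.48 and *Lep* from -0.34 to 1.88. The log2 ratio of the highest to the lowest summed level, 2.43, was 1.81 to 2.43 with each library left out. The 213 genes with r of at least 0.95 were 86 at a Spearman's rho of 1. Depth limits the 5 genes with the fewest counts.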
